A study of Mus musculus with 9 samples.

Results

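Cytokine receptors of thymocytes were examined as a set of 10 genes, chosen by symbol and represented by every probe set to which the array's gene table gives that symbol alone. The genes were Il7r, Il2ra, Il2rb, Il2rg, Il4ra, Il21r, Il6ra, Il6st, Ifngr1 and Il10ra. Of the 10, 9 had at least 1 such probe set, with 20 probe sets in all out of 34945 single-symbol probe sets on the array. Il2rg had none under this rule and was not analysed here. Expression was compared among mouse thymus tumors described as XIST-resistant (3 arrays), thymus tumors without that description (3 arrays) and normal thymus (3 arrays), all from total RNA on the Affymetrix Mouse430_2 array. XIST is a long noncoding RNA by which mammals shut down one X chromosome in female cells. The labels state no strain, genotype, transgene, treatment, age or sex for any group, nor whether replicate arrays represent different mice. The p-values therefore rest on array-to-array spread, which may be technical.

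Cytokine receptors are assembled from a chain that recognises a particular cytokine and a chain that is shared between cytokines. Their cytoplasmic tails hold JAK kinases, which phosphorylate STAT transcription factors when the cytokine binds. In the thymus the receptor encoded by Il7r keeps early thymocytes alive and dividing. It is switched off at the double-positive stage and returns when cells mature to the single-positive stage. Il2ra encodes the chain known as CD25, which marks early double-negative thymocytes and, later, regulatory T cells. Il2rb is shared by the receptors for the cytokines encoded by Il2 and Il15, and Il4ra and Il21r encode chains that recognise Il4 and Il21 products. Il6ra binds the Il6 product and passes the signal through Il6st, the chain also known as gp130. Ifngr1 and Il10ra encode the ligand-binding chains for interferon gamma and for the Il10 product and belong to a second structural class of cytokine receptor.

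Signals are MAS5 values in arbitrary units, with array medians of 13.9 to 25.8. The arrays fell into 2 sets by their poly-A spike-in control rows, which are added control RNAs. Resistant tumor 1, resistant tumor 2, tumor 1 and normal thymus 1 had a mean spike-in signal of 2.01 to 2.95 and array medians of 23.6 to 25.8. The remaining 5 arrays had a mean spike-in signal of 141 to 237 and array medians of 13.9 to 17.8. Each set held all 3 groups, so changes were also computed within each set, where they have no test. A probe set below its array's median was treated as too dim to give a level, since no detection calls were used. Tissue RNA was measured in bulk, so fewer cells of a type and less RNA per cell cannot be told apart in any result below.

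Of the 9 receptor genes with values, 7 were lower in both tumor groups than in normal thymus, and none was higher. They were Il7r, Il2rb, Il4ra, Il21r, Il6st, Ifngr1 and Il10ra. All 9 genes passed the filter on low values and were tested among 11671 genes with limma, and a gene was called when its p-value, adjusted over the whole set by Benjamini-Hochberg, was under 0.05. In resistant tumor against normal thymus 43.3% of all tested genes were called, 20.2% lower and 23.1% higher, and in tumor against normal thymus 42.4% were called, 19.1% lower and 23.3% higher. The same 7 genes were those whose groups did not overlap, where 25.7% of all tested genes lay wholly lower and 28.9% wholly higher in resistant tumors, and 25.2% and 30.1% in tumors. Il2rb, Il21r and Il10ra would not have passed the filter without the normal thymus arrays, so against normal thymus each could only be called lower. Their p-values carry that limit. The 7 of 9 therefore describes these genes and is not a test of the set. The median change of the 9 genes was -2.13 on the log2 scale in resistant tumors and -2.52 in tumors, and the median over all tested genes was 0.06 and 0.05. Both comparisons use the same 3 normal thymus arrays.

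**Figure D1:**
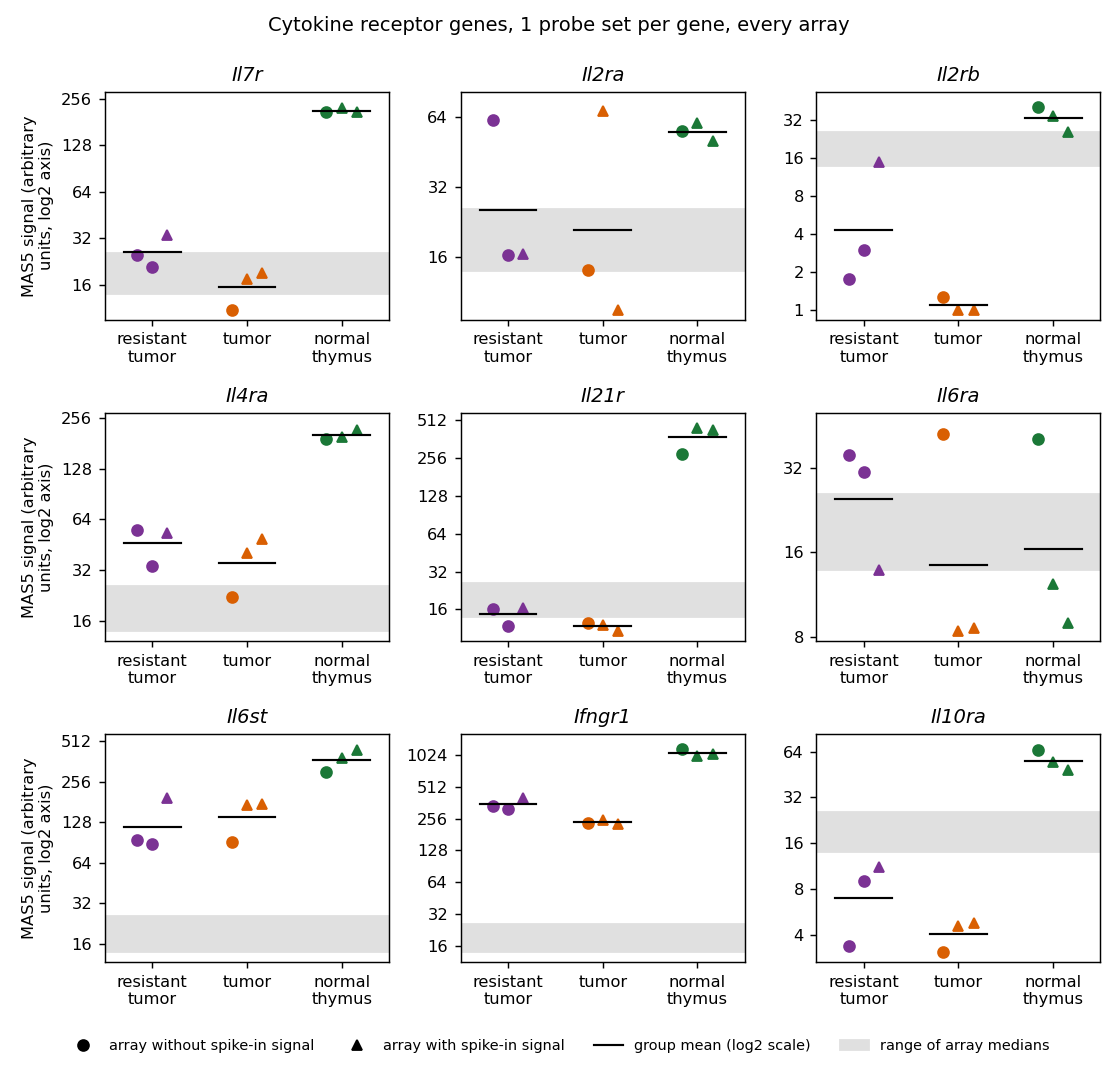
MAS5 signal of each receptor gene on every array, on a log2 axis with values under 1 drawn at 1. Each gene is shown by its brightest probe set among those that passed the filter on low values. Circles are arrays without spike-in signal and triangles are arrays with it, bars are group means on the log2 scale, and the grey band spans the array medians from 13.9 to 25.8. In 7 of the 9 panels every normal thymus array lies above every tumor and resistant tumor array, whereas Il2ra and Il6ra overlap.

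The promoter sequences of the 4 receptor genes that were lower in both tumor groups and reached the array median on at least 2 arrays of each tumor group are shown, because these are the members whose residual level could be measured. They are RefSeq windows on GRCm38.p6, read 5′ to 3′ on the gene's strand and ending at the base before the annotated gene. The Il7r stretch lies at chr15:9529942-9530126 on the minus strand, that of Il4ra at chr7:125552021-125552270 on the plus strand, that of Il6st at chr13:112463820-112464069 on the plus strand and that of Ifngr1 at chr10:19591699-19591948 on the plus strand. Capitals mark matches, on either strand, to any of 6 motifs searched. They were the STAT motif TTCNNNGAA, the RUNX motif TGTGGT, the GATA motif AGATAA, the ETS motif CCGGAAG, the AP-1 motif TGANTCA and the GC box GGGCGG.
Il7r: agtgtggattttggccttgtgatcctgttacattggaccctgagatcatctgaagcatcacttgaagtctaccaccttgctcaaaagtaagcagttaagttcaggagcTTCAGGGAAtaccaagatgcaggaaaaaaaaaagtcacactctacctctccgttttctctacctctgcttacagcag
Il4ra: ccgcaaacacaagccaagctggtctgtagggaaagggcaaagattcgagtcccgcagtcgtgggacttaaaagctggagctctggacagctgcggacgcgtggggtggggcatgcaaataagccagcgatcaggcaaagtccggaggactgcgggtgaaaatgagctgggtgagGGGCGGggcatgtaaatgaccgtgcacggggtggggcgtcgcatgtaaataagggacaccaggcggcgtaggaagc
Il6st: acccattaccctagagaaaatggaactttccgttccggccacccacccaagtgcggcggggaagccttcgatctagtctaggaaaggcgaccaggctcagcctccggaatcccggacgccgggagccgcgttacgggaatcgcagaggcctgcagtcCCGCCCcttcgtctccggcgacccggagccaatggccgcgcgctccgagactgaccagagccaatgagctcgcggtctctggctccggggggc
Ifngr1: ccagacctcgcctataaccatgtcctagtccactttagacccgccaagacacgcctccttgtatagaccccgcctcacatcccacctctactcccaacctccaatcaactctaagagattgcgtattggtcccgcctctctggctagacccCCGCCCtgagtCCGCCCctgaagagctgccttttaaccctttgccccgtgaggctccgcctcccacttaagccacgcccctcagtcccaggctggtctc
The Il7r stretch of 185 bases holds 1 match to the STAT motif. The letters of that motif occur in 7.18% of 27025 mouse promoter windows, which are longer at 250 bases. Il4ra and Il6st each hold 1 GC box and Ifngr1 holds 2, and 32.9% of all windows hold at least 1. Of the 7 receptor genes with both values and a promoter window, 1 had the STAT motif, 4 the GC box, 1 the RUNX motif (Il21r, 14.2% of all windows) and 1 the GATA motif (Il6ra, 10.3%). The ETS and AP-1 motifs had no match in the 7 (7.05% and 6.87% of all windows). These counts use the full windows of 250 bases, which for Il7r and Il21r reach into the annotated gene. For Il21r only 73 bases lie outside the gene, and its RUNX and GC box matches are not wholly within them. A match is a run of letters and not a shown binding site.

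Among the receptors built around a cytokine-specific chain of the Il7 and Il2 families, Il7r had the most uniform normal level. Il7r had signals of 24.9, 21.0 and 33.8 in resistant tumors, 11.1, 17.6 and 19.2 in tumors, and 209.6, 223 and 211 in normal thymus. The 3 normal arrays lay close together and far above both tumor groups, and the 2 tumor groups did not overlap either. Against normal thymus, Il7r changed by -3.04 ± 0.26 on the log2 scale in resistant tumors (SE, 3 arrays a group, limma adjusted p = 2.05e-05) and by -3.79 ± 0.26 in tumors (limma adjusted p = 5.23e-06), which are 8.24-fold and 13.8-fold lower levels. A second Il7r probe set was dimmer and moved the same way. Its signals were 3.38, 1.72 and 4.47 in resistant tumors, 8.34, 3.37 and 5.41 in tumors, and 62.0, 33.6 and 37.0 in normal thymus, below the array median on every tumor array. It was at least 2.05-fold lower in resistant tumors and at least 2.44-fold lower in tumors. In this dimmer probe set the resistant tumors were not above the tumors.

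Il21r, a receptor chain of activated and maturing lymphocytes, had the largest bound on its change among the members. Its signals were 15.97, 11.7 and 16.5 in resistant tumors, 12.5, 12.0 and 10.8 in tumors, and 276, 443 and 432 in normal thymus. Only resistant tumor 3 reached its array's median among the 6 tumor arrays. Il21r thus passed the filter only through normal thymus and could only be called lower against it. The change was -4.69 ± 0.25 in resistant tumors (limma adjusted p = 1.52e-06), and in tumors Il21r was at least 21.5-fold lower (limma adjusted p = 8.9e-07). Normal thymus 1, the normal array without spike-in signal, was the lowest of the normal arrays.

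Il4ra, which recognises the Il4 and Il13 cytokines, was reduced less and stayed measurable. Its brightest probe set had signals of 55.7, 33.8 and 52.9 in resistant tumors, 22.3, 40.3 and 49.3 in tumors, and 193, 199 and 218 in normal thymus. The tumor groups overlapped with each other and neither overlapped with normal thymus. Il4ra changed by -2.13 ± 0.30 in resistant tumors (limma adjusted p = 0.000405) and by -2.52 ± 0.30 in tumors (limma adjusted p = 0.000141), or 4.39-fold and 5.75-fold lower. A second probe set followed the spike-in sets within the tumor groups. It read 1.197 and 2.20 in resistant tumors 1 and 2, against 22.9 in resistant tumor 3, and 2.31 in tumor 1, against 11.8 and 23.0 in tumors 2 and 3, while normal thymus had 51.7, 86.2 and 86.3. The dimmest Il4ra probe set, with 2.95 to 16.7 in resistant tumors, 0.732 to 7.81 in tumors and 8.49 to 17.3 in normal thymus, was below the array median on all 9 arrays.

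Il2rb was near or under the detection range in the tumors. The probe set that passed the filter had 1.76, 2.99 and 14.9 in resistant tumors, 1.27, 0.857 and 0.859 in tumors, and 40.9, 34.5 and 25.9 in normal thymus. All 6 tumor arrays lay below the array median, which bounds the difference at no less than 1.60-fold in resistant tumors (limma adjusted p = 0.0258) and 1.90-fold in tumors (limma adjusted p = 0.002). The fitted changes of Il2rb rest on values too dim to give a level and do not measure the size of the difference. Il2rb also passed the filter only through normal thymus, so it could only be called lower against it. The call in resistant tumors rested on each of several arrays. It was lost without resistant tumor 1 (log2 change -2.31), resistant tumor 2 (-2.69), normal thymus 1 (-2.80), normal thymus 2 (-2.92) or normal thymus 3 (-3.13), with limma adjusted p-values of 0.0622 to 0.0867. The fitted change was also uneven between the spike-in sets, at -4.15 without spike-in signal and -0.9998 with it, where resistant tumor 3 alone stands for its group. The other Il2rb probe set had 7.19 to 7.90 in resistant tumors, 1.27 to 9.67 in tumors and 18.2 to 23.4 in normal thymus, and neither of its changes passed the test. It was the brighter of the pair by mean log2 signal over all arrays. It failed the filter because it reached the array median on only 2 arrays, both of normal thymus.

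Il2ra did not follow the other chains. Its brighter probe set read 62.0, 16.4 and 16.4 in resistant tumors, 14.1, 67.8 and 9.47 in tumors, and 55.8, 60.2 and 50.4 in normal thymus. A single array in each tumor group, resistant tumor 1 and tumor 2, was at or above the normal level, and the other 4 tumor arrays lay between 9.47 and 16.4, against a normal mean of 55.5. These 2 arrays belong to different spike-in sets. The log2 change was -1.11 in resistant tumors (95% interval -2.73 to 0.50, limma adjusted p = 0.244) and -1.41 in tumors (95% interval -3.03 to 0.21, limma adjusted p = 0.146). Without tumor 2 the change in tumors was -2.26 with a limma adjusted p of 0.016, and without resistant tumor 1 the change in resistant tumors was -1.75 with 0.0783. The dimmer Il2ra probe set was also highest in resistant tumor 1 among the resistant tumors, with 26.1, 7.04 and 5.47, but not in tumor 2 among the tumors, with 13.3, 10.9 and 2.95. It had 28.0, 18.2 and 19.1 in normal thymus.

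In the Il6 family the signal-transducing chain and the ligand-binding chain gave different results. Il6st read 94.5, 88.0 and 194.8 in resistant tumors, 91.2, 172 and 174 in tumors, and 302, 387 and 445 in normal thymus. Within every group the arrays without spike-in signal were the lowest, and the groups against normal thymus still did not overlap. It changed by -1.67 ± 0.34 in resistant tumors (limma adjusted p = 0.00349) and by -1.41 ± 0.34 in tumors (limma adjusted p = 0.00808). With equal array medians the change was -1.73 in resistant tumors (limma adjusted p = 0.0575) and -1.23 in tumors (limma adjusted p = 0.166). Of the 3 other Il6st probe sets, 1 moved with it, at 29.2, 18.5 and 22.0 in resistant tumors, 22.8, 15.8 and 26.7 in tumors, and 53.8, 41.9 and 44.9 in normal thymus. Another showed the opposite relation to the spike-in sets. It read 178, 143 and 105 in resistant tumors, 173, 87.5 and 105 in tumors, and 325, 142 and 124 in normal thymus, and its 3 groups overlapped.

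The brighter Il6ra probe set separated arrays rather than groups. It had 35.3, 30.9 and 13.8 in resistant tumors, 42.0, 8.41 and 8.601 in tumors, and 40.3, 12.4 and 8.98 in normal thymus. Its 4 values above the array median were those of the 4 arrays without spike-in signal. The log2 change was 0.58 in resistant tumors (95% interval -1.11 to 2.28) and -0.19 in tumors (95% interval -1.88 to 1.51). The other Il6ra probe set had 15.1, 0.917 and 16.8 in resistant tumors, 14.4, 13.0 and 10.7 in tumors, and 28.3, 39.1 and 25.5 in normal thymus. In it both tumor groups lay wholly below normal thymus, with log2 changes of -2.27 and -1.27 that did not pass the test (limma adjusted p = 0.158 and 0.469 over all probe sets).

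The 2 receptors of the second class were both lower. Ifngr1 was the most precisely measured member, with 337, 320 and 407 in resistant tumors, 235, 247 and 230.0 in tumors, and 1192, 1006 and 1059 in normal thymus. The 3 groups did not overlap, and all 9 arrays were far above the array medians. It changed by -1.62 ± 0.12 in resistant tumors (limma adjusted p = 9.12e-06) and by -2.19 ± 0.12 in tumors (limma adjusted p = 1.45e-06), which are 3.07-fold and 4.56-fold lower levels. Il10ra had 3.35, 8.97 and 11.2 in resistant tumors, 3.07, 4.53 and 4.79 in tumors, and 65.2, 54.9 and 48.3 in normal thymus. It was below the array median on all 6 tumor arrays and was at least 2.69-fold lower in resistant tumors (limma adjusted p = 0.00155) and at least 3.19-fold lower in tumors (limma adjusted p = 0.000394). Il10ra passed the filter only through normal thymus, so it could only be called lower against it. A second Il10ra probe set varied within normal thymus itself, with 39.5, 21.4 and 0.689, and the remaining one was near or under a signal of 1 on all 9 arrays.

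**Figure D2:**
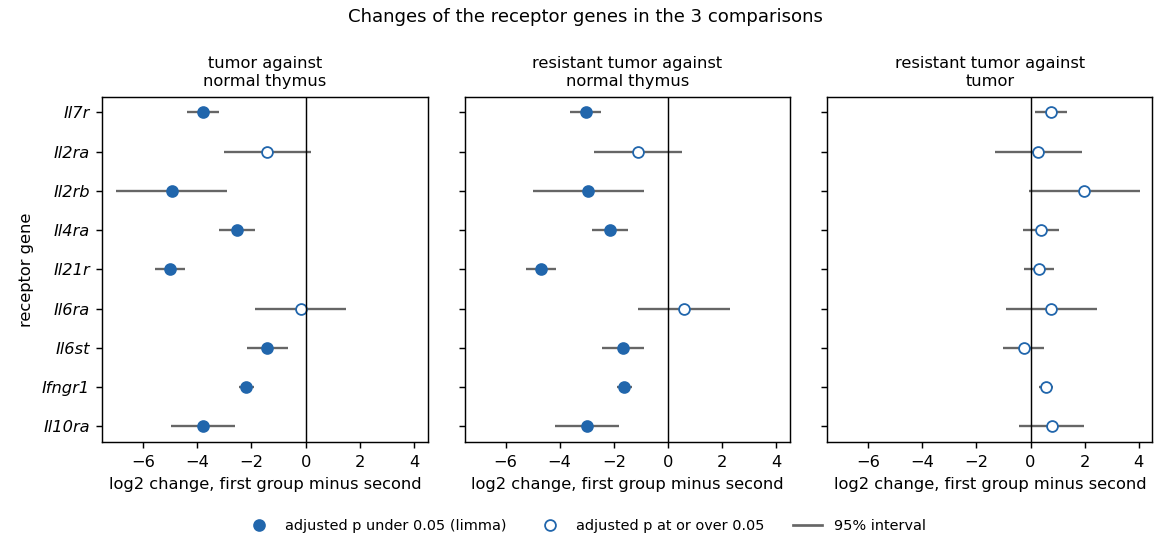
Log2 change of each receptor gene in the 3 comparisons, first group minus second, with 95% intervals from limma. Filled points had an adjusted p under 0.05. Il7r, Il2rb, Il4ra, Il21r, Il6st, Ifngr1 and Il10ra are filled in both comparisons with normal thymus, and no point is filled in resistant tumor against tumor.

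Within the spike-in sets, the 7 called genes were lower in both tumor groups in each set. In resistant tumors the log2 change without and with spike-in signal was -3.20 and -2.68 for Il7r, -2.16 and -1.98 for Il4ra, -4.34 and -4.73 for Il21r, -1.73 and -1.09 for Il6st, and -1.86 and -1.34 for Ifngr1. In tumors it was -4.24 and -3.56 for Il7r, -3.12 and -2.23 for Il4ra, -1.73 and -1.26 for Il6st, and -2.34 and -2.11 for Ifngr1. For Il21r in tumors, and for Il10ra and Il2rb in both groups, the tumor values lay below the array median, so only the sign is given. In the arrays without spike-in signal the same held for Il21r in resistant tumors and for Il7r and Il4ra in tumors. Their changes there, -4.34, -4.24 and -3.12, show the sign and not a size. Il6ra had no steady sign, with -0.29 and 0.39 in resistant tumors and 0.06 and -0.31 in tumors. Il2ra had -0.81 and -1.74 in resistant tumors and -1.98 and -1.12 in tumors.

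Over all 20 probe sets without any filter on low values, 10 were called lower in resistant tumors and 9 in tumors, and none was called higher. For all 34945 probe sets tested in the same way, 10.5% and 10.7% were called lower and higher in resistant tumors, and 10.3% and 10.7% in tumors. The sign of the change was negative for 18 of the 20 probe sets in resistant tumors and for all 20 in tumors. The 2 with a positive sign in resistant tumors were the brighter Il6ra probe set and an Il6st probe set under the array median on every array. Between resistant tumors and tumors none of the 20 was called, against 0.0229% of all probe sets (0.02% lower and 0.00286% higher). Probe sets of a gene share its transcripts and are not independent.

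**Figure D3:**
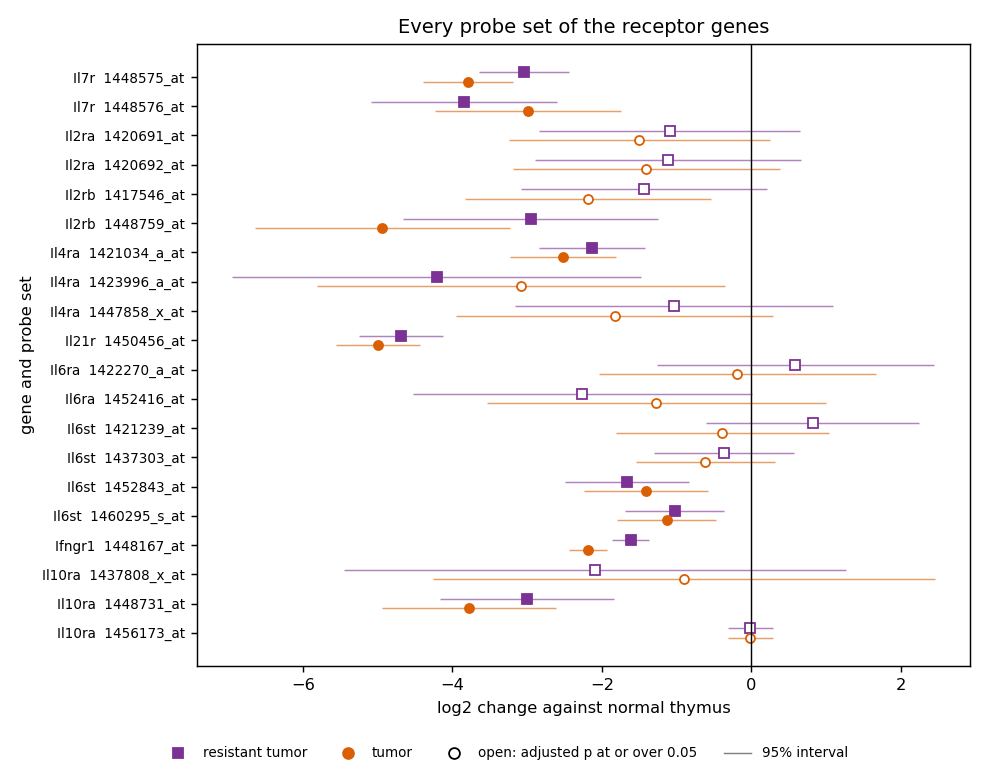
Log2 change against normal thymus of all 20 probe sets, in resistant tumors (squares) and tumors (circles), with 95% intervals from a limma fit of all single-symbol probe sets without a filter. Filled symbols had an adjusted p under 0.05. Each probe set of Il7r, Il21r and Ifngr1 is filled in both groups, and the probe sets of Il4ra, Il2rb, Il6st and Il10ra differ in whether they pass.

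Between resistant tumors and tumors, none of the 9 receptor genes passed the test, where 0.36% of all tested genes did (42 genes, 15 higher and 27 lower, or 4 and 14 with equal array medians). Before adjustment, limma gave p-values under 0.05 to 2 of the 9, Ifngr1 and Il7r, and to 7.23% of all tested genes. In 3 genes the groups did not overlap, all higher in resistant tumors, where 4.41% of tested genes were higher and 6.01% lower without overlap. They were Ifngr1, Il7r and Il2rb, and the Il2rb values lay below the array median on all 6 arrays, so their order gives no difference in level.

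Ifngr1 was 1.49-fold higher in resistant tumors than in tumors, with a log2 change of 0.57 (95% interval 0.30 to 0.84, limma adjusted p = 0.129). The change was 0.48 within the arrays without spike-in signal and 0.77 within those with it, and a limma fit blocked on spike-in set gave an adjusted p of 0.0364. Il7r was 1.68-fold higher, with a log2 change of 0.75 (95% interval 0.16 to 1.33, limma adjusted p = 0.494), and 0.0612 with the block. With equal array medians the change was 0.32 for Ifngr1 and 0.50 for Il7r, each with a limma adjusted p of 0.846. For Il4ra the interval of the difference was -0.28 to 1.06, for Il21r -0.24 to 0.86, for Il6st -1.02 to 0.51 and for Il2ra -1.32 to 1.91. These intervals leave room for differences in either direction. The median change of the 9 genes was 0.57, against -0.02 over all tested genes.

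The ligands of these receptors were mostly too dim to test. Of 15 ligand genes listed, 14 had a probe set and 4 passed the filter, and of these 2 were called lower and 1 higher in resistant tumors, and 3 lower and 1 higher in tumors. Among all tested genes 20.2% were called lower and 23.1% higher in resistant tumors, and 19.1% and 23.3% in tumors. Il7, the thymic survival cytokine made chiefly by thymic epithelium, had 0.547, 7.12 and 2.45 in resistant tumors, 4.12, 3.34 and 1.64 in tumors, and 151, 153 and 145 in normal thymus. It was at least 7.23-fold lower in resistant tumors (limma adjusted p = 0.000175) and at least 8.58-fold lower in tumors (limma adjusted p = 0.000198). Il7 and Il15 passed the filter on low values only through the normal thymus arrays, and Il10 only through the tumor arrays, so each could be called in 1 direction only. Il10, an anti-inflammatory cytokine, was higher in both tumor groups. It read 232, 161 and 107 in resistant tumors, 223, 202 and 251 in tumors, and 10.1, 12.3 and 5.82 in normal thymus, and was at least 7.99-fold higher in resistant tumors (limma adjusted p = 1.28e-05) and at least 11.3-fold higher in tumors (limma adjusted p = 6.05e-06). Il15 was at least 1.24-fold lower in resistant tumors and 1.47-fold lower in tumors. Osm changed by -1.15 ± 0.27 in tumors (limma adjusted p = 0.00725) and by -0.36 ± 0.27 in resistant tumors (limma adjusted p = 0.319).

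Other receptor chains were lower or did not pass the test. Of 12 tested, 6 were called lower in resistant tumors and 8 in tumors, and none was called higher. The shares over all tested genes were 20.2% lower and 23.1% higher in resistant tumors, and 19.1% and 23.3% in tumors. Il13ra1 and Il12rb1 would not have passed the filter without the normal thymus arrays, so against normal thymus each could only be called lower. Lifr, which pairs with the Il6st chain to bind leukemia inhibitory factor, had 76.2, 32.7 and 21.2 in resistant tumors, 39.6, 24.1 and 38.1 in tumors, and 630.2, 588 and 594 in normal thymus, a change of -4.01 ± 0.40 and -4.19 ± 0.40 (limma adjusted p = 4.94e-05 and 3.77e-05). Il10rb, the partner chain of Il10ra, had 59.4, 40.03 and 68.3 in resistant tumors, 43.8, 43.0 and 47.1 in tumors, and 185, 194 and 208 in normal thymus. Its change was -1.84 ± 0.20 in resistant tumors and -2.13 ± 0.20 in tumors (limma adjusted p = 8.11e-05 and 3.37e-05). Il12rb1, a chain for the Il12 and Il23 cytokines, changed by -1.36 ± 0.32 in resistant tumors and was at least 4.04-fold lower in tumors. Ifnar2, a type I interferon receptor chain, changed by -1.11 ± 0.22 in resistant tumors (limma adjusted p = 0.00308, and 0.101 with equal array medians). In tumors Ifnar2 changed by -1.15 ± 0.22 (limma adjusted p = 0.00254). Il13ra1 was at least 1.77-fold lower in tumors (limma adjusted p = 0.0291, and 0.0676 with quantile normalization and 0.11 with equal array medians), and its change in resistant tumors was -0.96 (limma adjusted p = 0.0748). Ifngr2, the partner of Ifngr1, did not pass the test, with changes of -0.24 and -0.69 (95% intervals -1.16 to 0.69 and -1.62 to 0.24).

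The kinases and STAT factors downstream had a median log2 change of -0.53 in resistant tumors and -0.50 in tumors. Of 10 tested, 5 were called lower in resistant tumors and 4 in tumors, and none higher. Among all tested genes 20.2% were lower and 23.1% higher in resistant tumors, and 19.1% and 23.3% in tumors. Stat5b is a STAT factor used by the Il7 and Il2 families. It had 331, 388 and 362 in resistant tumors, 404, 413 and 372 in tumors, and 707, 647 and 688 in normal thymus. Its change was -0.92 ± 0.10 and -0.78 ± 0.10 (limma adjusted p = 9.77e-05 and 0.000263). Stat5a did not pass the test, at -0.29 in resistant tumors and -0.14 in tumors (limma adjusted p = 0.0718 and 0.386). Jak1 changed by -0.67 ± 0.13 in resistant tumors and -0.60 ± 0.13 in tumors, Jak2 by -0.75 ± 0.11 and -0.65 ± 0.11, and Stat6, which serves Il4ra, by -0.61 ± 0.17 and -0.53 ± 0.17. With equal array medians Stat5b, Jak1, Jak2 and Stat6 kept a negative sign, and their adjusted p-values were 0.0705 to 0.353 in resistant tumors and 0.263 to 0.647 in tumors. Stat4 varied by array, with 0.610, 0.953 and 56.3 in resistant tumors, 33.7, 38.4 and 45.7 in tumors, and 96.4, 131 and 109 in normal thymus. Its call in resistant tumors (log2 change -4.86 ± 1.27, limma adjusted p = 0.0123) came with 2 arrays set to the floor of 1 and a change of -1.08 within the arrays with spike-in signal. Jak3, the kinase bound by the shared gamma chain, changed by 0.48 in resistant tumors (95% interval -0.12 to 1.09) and -0.04 in tumors (95% interval -0.64 to 0.57).

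Of 17 inhibitors of JAK-STAT signalling tested, 3 were called lower and 2 higher in resistant tumors, and 3 lower and 3 higher in tumors, which is no larger a share in either direction than over all tested genes. Socs3, an inhibitor induced by STAT3 that acts on the Il6st chain, had 1467, 1150 and 1462 in resistant tumors, 1032, 806 and 1263 in tumors, and 190, 166 and 145 in normal thymus. It rose by 3.02 ± 0.18 in resistant tumors and 2.61 ± 0.18 in tumors (limma adjusted p = 2.82e-06 and 5.17e-06). Socs1, Cish and Socs2, which are induced by STAT factors and restrain them, went the other way. Socs1 changed by -2.03 ± 0.32 in resistant tumors and -2.37 ± 0.32 in tumors, Cish by -1.30 ± 0.40 and -1.83 ± 0.40, and Socs2 by -1.38 ± 0.26 and -1.37 ± 0.26, all past the test. For Socs2 in tumors the adjusted p was 0.0542 with equal array medians. Among 16 cytokine target genes 9 were called lower and none higher in resistant tumors, and 10 lower and 1 higher in tumors. Over all tested genes 20.2% were lower and 23.1% higher in resistant tumors, and 19.1% and 23.3% in tumors. Bcl6, a transcriptional repressor, changed by -3.39 ± 0.16 in resistant tumors and -3.85 ± 0.16 in tumors, and Irf8 by -1.68 ± 0.26 and -2.02 ± 0.26. Pim1, a STAT-induced kinase, had 161, 138 and 201 in resistant tumors, 147, 162 and 150.2 in tumors, and 467, 484 and 465 in normal thymus. Fos had 71.0, 61.8 and 184 in resistant tumors, 83.4, 119 and 511 in tumors, and 41.6, 39.6 and 29.9 in normal thymus. It rose by 2.23 ± 0.63 in tumors (limma adjusted p = 0.0167) and its change in resistant tumors was 1.35 ± 0.63 (limma adjusted p = 0.112). Cish and Osm stand in 2 of the 5 lists each. No gene of these 5 lists was called between resistant tumors and tumors.

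**Figure D4:**
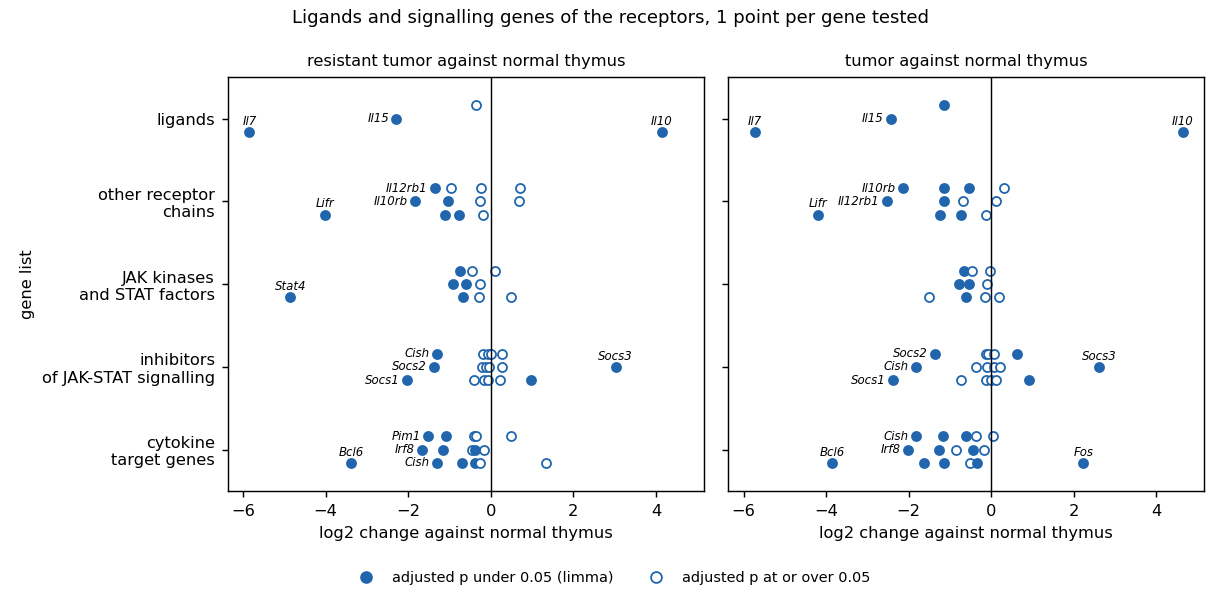
Log2 change against normal thymus of the tested genes of 5 lists, in resistant tumors (left panel) and tumors (right panel), 1 point per gene, filled where the limma adjusted p was under 0.05. Il7, Lifr and Bcl6 lie far to the left and Il10 and Socs3 far to the right in both panels, while the kinases and STAT factors stay close to 0 apart from Stat4.

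Marker lists for cell types of the thymus moved at the same time. Their counts stand beside shares over all tested genes of 20.2% lower and 23.1% higher in resistant tumors. In tumors these shares were 19.1% and 23.3%. Of the 9 tested T cell markers 6 were called lower in each tumor group, with a summed signal of 7667 to 9741 in resistant tumors, 8776 to 10160 in tumors and 14250 to 15660 in normal thymus, and Cd2 and Cd8a lay below the array median on all 6 tumor arrays. The CD3 chains of the T cell receptor complex did not pass the test, with changes in resistant tumors and tumors of -0.30 and -0.10 for Cd3d, -0.04 and 0.19 for Cd3e, and 0.10 and 0.24 for Cd3g. Thy1, a surface protein of T cells, was called lower at -0.34 and -0.33. Thymic epithelial markers, 8 of 9 lower in resistant tumors and 9 of 9 in tumors, summed to 150 to 251 in resistant tumors, 131 to 321 in tumors and 5602 to 5912 in normal thymus, with Foxn1, Psmb11, Pax1 and Aire below the array median in both tumor groups. Many tested markers would not have passed the filter without the normal thymus arrays. These were 7 of 9 epithelial, 4 of 4 B cell, 4 of 5 dendritic cell and 6 of 7 neutrophil markers. The same held for 3 of 9 T cell, 1 of 5 regulatory T cell and 3 of 4 natural killer and innate lymphocyte markers. The counts of lower calls in these lists are descriptions only. B cell markers summed to 53.8 to 111 in resistant tumors, 21.2 to 121 in tumors and 252 to 313 in normal thymus, and 6 of 7 in resistant tumors and 7 of 7 in tumors lay below the array median. The part of these cells in the receptor changes was not tested.

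Dendritic cell markers summed to 62.0 to 100.2 in resistant tumors, 46.2 to 102 in tumors and 154 to 202 in normal thymus, with 2 and 4 of 5 tested called lower. Neutrophil markers summed to 57.1 to 89.3 in resistant tumors, 37.5 to 187 in tumors and 841 to 1015 in normal thymus, with 4 and 6 of 7 called lower. Regulatory T cell markers, which bear on Il2ra and Il2rb, summed to 488 to 596 in resistant tumors, 312 to 394 in tumors and 1145 to 1317 in normal thymus, and Foxp3 itself was below the array median on all 9 arrays. Of the 5 tested, 3 were called lower and 1 higher in resistant tumors, and 4 lower and none higher in tumors. The 1 higher was Ctla4, an inhibitory receptor of T cells, with 1.29 ± 0.35 in resistant tumors (limma adjusted p = 0.0148) and -0.23 ± 0.35 in tumors (limma adjusted p = 0.645). Ikzf2 was at least 29.8-fold lower in resistant tumors and at least 35.3-fold lower in tumors. Its mean log2 signal in normal thymus was 9.27, the highest of the 5 tested, and it passed the filter only through normal thymus. Ikzf2 thus made up a large part of the normal sum, and the fall of the sum does not stand for the list as a whole. Macrophage marker sums overlapped between the groups, at 535 to 1028 in resistant tumors, 536 to 864 in tumors and 770.0 to 855 in normal thymus, with 1 of 7 lower in each group. The sum over natural killer and innate lymphocyte markers was higher in the tumors, at 2448 to 3563 in resistant tumors, 1190 to 2074 in tumors and 948 to 984 in normal thymus. Of the 4 tested, 1 was called higher and 3 lower in resistant tumors, and 1 higher and 2 lower in tumors. The higher one was Gzma, which encodes a granzyme of cytotoxic cells, with 1.94 ± 0.21 in resistant tumors (limma adjusted p = 8.89e-05) and 0.97 ± 0.21 in tumors (limma adjusted p = 0.00487). Its mean log2 signal was 11.46 in resistant tumors, 10.49 in tumors and 9.52 in normal thymus. Gzma thus made up most of the sum, which does not stand for the list as a whole. In that list Ncr1, Klrd1, Eomes and Nkg7 were below the array median in both tumor groups. Fibroblast markers summed to 2706 to 6625 in resistant tumors, 2275 to 5283 in tumors and 1101 to 1197 in normal thymus, with 4 higher and 1 lower, and 3 higher, of 7. The collagen genes Col1a1, Col1a2 and Col3a1 made up most of the sum in both tumor groups, so it does not stand for the whole list. Dcn changed the other way, by -1.28 in resistant tumors (limma adjusted p = 0.0401) and -1.14 in tumors (limma adjusted p = 0.0635). Endothelial markers summed to 251 to 385 in resistant tumors, 252 to 297 in tumors and 271 to 290 in normal thymus, with 3 higher and 1 lower of 6 in each group. Of these, Emcn passed the filter only through the tumor arrays, so it could only be called higher.

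The genes whose log2 profiles over the 9 arrays lay closest to those of the receptors were found by the root mean square difference after centring each profile on its mean. For Il7r they were Bcl6 (0.21), H2-Aa, an MHC class II chain (0.23), and Gimap6 (0.26). For Ifngr1 they were Syne3, Ppp1r3b and Pmaip1 (0.13 each), and for Il21r they were Wdr78 (0.25), Cd83 (0.27) and Esrp1 (0.34). H2-Aa was also the closest profile to Il10ra (0.31). Il2ra had no near match, with Car3 closest at 0.64, and Il2rb had Fyb at 0.43. These profiles share arrays, spike-in sets and the contrast between tumor and normal tissue, so the distances are descriptions only.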

How the data were processed

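Total RNA was extracted with Trizol, labelled with biotin and hybridised to Affymetrix Mouse430_2 arrays, per the labels' protocols. The deposited values are linear intensity values, and the submitters' processing notes name MAS5. No source used here gives its version, scaling target or detection calls. The 45101 probe sets were named through the platform's gene table, which gives 34945 a single symbol and 932 several and does not list 9160, with 64 control rows. Symbols were updated through RefSeq gene identifiers (18032 of 18193 matched).

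The deposited signals were floored at 1 before taking log2. Probe sets at or above their array's median on at least 3 of 9 arrays were kept, and each gene was represented by its brightest one (mean log2 over all arrays), giving 11671 genes. One limma 3.58.1 model (R 4.3.3) with a mean per group and an intensity trend was fitted to all 9 arrays, and two-sided p-values were adjusted by Benjamini-Hochberg over all genes. The fit was tested on simulated data. Probe sets were also tested without the filter over all 34945. A gene below the array median on all arrays of 1 group has only a bound. It is written "at least N-fold" and compares the brighter group's mean with the higher of the gene's own signal and the array median on each array of the dimmer group. The number of arrays limits the precision. The members and gene lists were chosen with earlier results of these data known. The text names all members, up to 4 called genes per list and comparison with the largest change and no overlap, called kinases and STAT factors, and up to 3 of the closest profiles of a member. Ifngr2 and Jak3, partners of members, and Stat5a were added after their values were seen, as were the marker genes.

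In tumor 1 the 64 control rows were ordered differently (correlation with the other arrays -0.295, and 0.907 once moved to sorted row names), and its spike-in set was read after that correction. Replicate numbers were checked as pairs through deviations from group means. For tumor and normal thymus the same-numbered arrays correlated at 0.654, 0.371 and 0.411, and such arrays also share a spike-in set. Resistant tumor 2 correlated at -0.301 with tumor 2 and -0.337 with normal thymus 2. Alternatives were other normalizations, offsets, filters and probe set rules, no trend, fits of 2 groups only, the spike-in set or replicate number as a block, and leaving out each array. Figures used matplotlib 3.10.9 under Python 3.11.15.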

Additional observations from a re-analysis of the deposited data

How the results depend on the processing

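With equal array medians the count of called genes was 2034 in resistant tumor (878 higher and 1156 lower, against 2696 and 2353) and 2287 in tumor against normal thymus, and 18 in resistant tumor against tumor. That setting shifted the median change of all genes to 0.00, 0.24 and -0.26. Testing every probe set gave 7674 calls in resistant tumor and 7504 in tumor against normal thymus. In resistant tumor against tumor the 42 calls became 22 without a filter, 23 with the 75th percentile filter, 27 with the mean over probe sets, 8 with only the 2 groups fitted, 143 when blocked on spike-in set and 92 with the replicate block. Leaving out 1 array gave 8 (without tumor 2) to 70 (without resistant tumor 3), with 10 without tumor 3, 20 without normal thymus 2 and 19 without normal thymus 3. The cause was not tested.

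Of the receptors, 5 to 7 of 9 were called in resistant tumor and 5 to 8 in tumor against normal thymus under all settings tried, and the filter at the 75th percentile, with 5, left dim genes untested. The counts over all tested genes moved with the setting too. In tumor against normal thymus they were 4943 of 11671 in the main fit and 2287 of 11671 with equal array medians. They were 4778 of 18193 without a filter, 3455 of 7582 with the 75th percentile filter and 6854 of 11671 with the spike-in block. In resistant tumor against normal thymus they were 5049 in the main fit and 2034 with equal array medians. The range for the receptors is a description only. Between resistant tumors and tumors the count of receptors called was 0, and 1 (Ifngr1) when blocked on spike-in set. The replicate block gave 6085 calls in resistant tumor and 5967 in tumor against normal thymus and changed no member's call in any comparison, and resistant tumors did not correlate best with their own number throughout. The sign turned only in values that did not pass the test. For Il6ra it turned in tumors to 0.0321 with quantile normalization and to 0.20, 0.19 and 0.46 without tumor 2, tumor 3 or normal thymus 1 (range -0.9556 to 0.46 over arrays left out), and in resistant tumors to -0.84 with the mean over probe sets and -0.0257 with the spike-in block. In resistant tumor against tumor the mean over probe sets gave -0.0533 for Il7r, -0.37 for Il4ra, -0.11 for Il6ra and 0.0329 for Il6st. Il6st was 0.0228 with the spike-in block, Il21r -0.0289 with quantile normalization, and Il2ra -0.35 and -0.28 without resistant tumor 1 or tumor 3 (range -0.35 to 1.1439 over arrays left out). Without a filter the other Il2rb probe set, brighter over all arrays, stood for the gene. It did not pass (limma adjusted p = 0.195 in resistant tumors and 0.0546 in tumors). Signal near background limits Il2rb, Il10ra, Il21r, Il2ra and Il6ra. Il7r reached the array median on only 2 arrays of each tumor group, so its level in the tumors is limited too.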
